A study of Homo sapiens with 4 samples.

Results

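The regions described here are the stretches of open chromatin on human chromosomes 4, 13 and 18 in RKO cells, an established colon cancer cell line. They were found by taking every ATAC-seq peak listed on these chromosomes in any of 4 libraries and joining peaks that overlapped by at least 1 bp. This gave 1973 regions of 20450 over chromosomes 1 to 22 and X, with 1125 on chromosome 4, 458 on chromosome 13 and 390 on chromosome 18. All coordinates are hg19.

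ATAC-seq uses the Tn5 transposase, which cuts and tags DNA wherever nucleosomes and other proteins leave it exposed, so that reads pile up over promoters, enhancers and other accessible elements. CHD7 is an ATP-dependent chromatin remodeller, a protein that moves nucleosomes and is known for its binding at enhancers. Gene-poor chromosomes carry long stretches of compact, late-replicating chromatin between islands of active genes, and chromosome 18 is the usual example of a chromosome that lies towards the nuclear periphery.

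The control group was RKO cells stably infected with a control lentivirus, and the shCHD7-2 group was RKO cells stably infected with a lentivirus that carries a short hairpin RNA against CHD7. Each group had 2 libraries, each from 100000 nuclei, and both groups share the cell line and the viral infection. A single hairpin was used, the CHD7 transcript was not measured in these lists, and the labels do not say whether replicates came from separate cultures. The spread between replicates, and every p value, may therefore reflect technical variation alone.

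The label of gene-poor chromosomes was checked against a RefSeq gene table. Chromosome 4 had 4.03 protein-coding genes per Mb of the span covered by peaks, chromosome 13 had 3.56 and chromosome 18 had 3.48. These were the 3 lowest values among 23 chromosomes, and the rest of the genome had 7.25. The gene table is for a later build (GRCh38.p14), so it was used for counts per chromosome only, and no gene, exon or promoter was assigned to a region.

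No read totals were listed. The typical background of each library (the read pileup assumed where nothing is enriched) was solved from the values of its peaks and came to 0.916 and 0.843 reads in control replicates 1 and 2 and 1.40 and 1.62 reads in shCHD7-2 replicates 1 and 2. The shCHD7-2 libraries, which had the shorter peak lists, thus had the higher background. On chromosomes 4, 13 and 18 the lowest called summit had 6 reads in both control libraries and 8 in both shCHD7-2 libraries.

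Open regions were sparser on these chromosomes than on the pooled other chromosomes, in all 4 libraries. Control replicates 1 and 2 had 3.45 and 3.16 peaks per Mb on chromosomes 4, 13 and 18 against 4.68 and 4.27 on the other chromosomes. shCHD7-2 replicates 1 and 2 had 1.87 and 2.36 peaks per Mb against 2.54 and 3.06. The ratio of the former density to the latter was 0.738, 0.742, 0.735 and 0.769 in the same order of libraries, with a mean of 0.746 ± 0.0155 (SD, n = 4 libraries). By chromosome, the mean ratio was 0.796 ± 0.0121 for chromosome 4, 0.678 ± 0.0315 for chromosome 13 and 0.705 ± 0.0509 for chromosome 18 (SD, n = 4 libraries), and each lay below 1 in 4 of 4 libraries. They were not the sparsest chromosomes. In regions per Mb over all libraries, chromosome 4 was 17th of 23, chromosome 13 was 21st and chromosome 18 was 20th, and chromosomes 22 and 21 came last. In the shCHD7-2 libraries chromosomes 17, 19 and 22 had fewer peaks per Mb, at 1.17 and 1.52.

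Relative to their genes, these chromosomes held more open regions than the pooled rest, as several other chromosomes did. The 2 control libraries shared 58.0 regions per 100 protein-coding genes on chromosomes 4, 13 and 18, with 58.1, 58.9 and 56.7 on the individual chromosomes. The other chromosomes had 41.7, and the gene-rich chromosomes 17, 19 and 22 had 14.8. Counted the other way, chromosomes 4, 13 and 18 had 1.72, 1.70 and 1.76 genes per shared control region, and chromosomes 2, 3, 5, 7, 8, 9 and 10 had between 1.36 and 1.74. Over the 23 chromosomes, genes per Mb and shared control regions per Mb were barely related (Spearman's rho 0.06, Pearson's r 0.08, given as a description since the points come from the same libraries). Regions of both controls lay a median of 185 kb apart on chromosomes 4, 13 and 18 and 137 kb apart elsewhere.

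**Figure D1:**
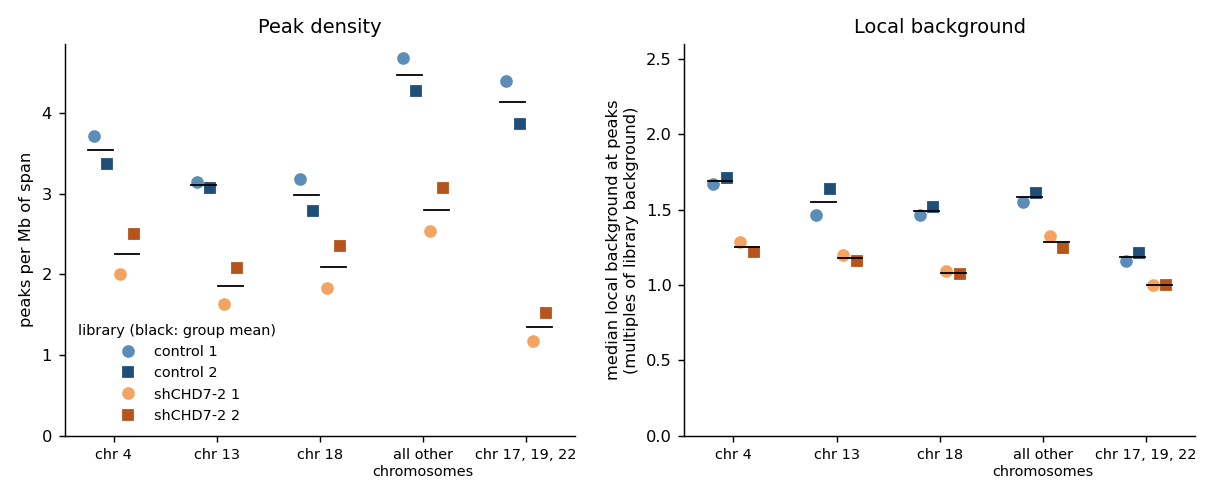
Left, peaks per Mb of the span between the first and last peak, and right, the median local background at peaks as a multiple of the library background, for chromosomes 4, 13 and 18, all other chromosomes and the gene-rich chromosomes 17, 19 and 22. Each point is 1 library and each black bar a group mean of 2 libraries, and the 3 gene-poor chromosomes lie below the other chromosomes in density in every library.

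Fewer peaks were called on the gene-poor chromosomes after CHD7 knockdown, by about the same factor as elsewhere. Control replicates 1 and 2 listed 1255 and 1150 peaks there, and shCHD7-2 replicates 1 and 2 listed 679 and 856. The group means (± SD, n = 2 each) were 1202.5 ± 74.2 and 767.5 ± 125, and their log2 ratio was -0.65 against -0.67 on the other chromosomes (exact two-sided permutation test, p = 0.333). This is the smallest p that the permutation test can give for 2 libraries against 2, so it cannot pass a threshold of 0.05 here. For some comparisons below, the text also says whether the groups overlap. On chromosome 4 the libraries listed 710, 643, 382 and 476 peaks, a log2 ratio of -0.66. Chromosome 13 went from 298 and 291 peaks to 155 and 197, a log2 ratio of -0.74. Chromosome 18 went from 247 and 216 peaks to 142 and 183, a log2 ratio of -0.51. On each of the 3 chromosomes the groups did not overlap. Chromosomes 17, 19 and 22, by comparison, had a log2 ratio of -1.62.

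The gene-poor chromosomes held nearly the same share of each list. Their share was 9.47% and 9.51% in control replicates 1 and 2 and 9.43% and 9.82% in shCHD7-2 replicates 1 and 2, so the groups overlapped (difference of 0.138 percentage points, exact two-sided permutation test, p = 1.0). Among the strongest peaks, whose -log10 q was 10 or more, the share was 10.2% in both control libraries against 8.53% and 9.67% in shCHD7-2, a difference of -1.09 points without overlap (exact two-sided permutation test, p = 0.333). On chromosome 4 alone these peaks numbered 203 and 163 in control and 37 and 58 in shCHD7-2, a log2 ratio of -1.95 against -1.70 on the other chromosomes. The share of all peaks on chromosome 18 moved the other way, from 1.86% and 1.79% in control to 1.97% and 2.1% in shCHD7-2, and did not overlap between groups (exact two-sided permutation test, p = 0.333). Among the strongest peaks the chromosome 18 share overlapped between groups, with a difference of 0.02 points.

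Covered length fell more than peak number, and peaks were also narrower. Peaks covered 666 and 601 kb of chromosomes 4, 13 and 18 in control and 300.5 and 379 kb in shCHD7-2, a log2 ratio of -0.90 against -0.88 elsewhere. The median width was 471 and 462 bp in control and 404 and 395.5 bp in shCHD7-2, without overlap between the groups.

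Peak strength was measured as the fold enrichment at the summit, the ratio of the summit pileup to the local background with 1 read added to each. The added reads make the fold depend on sequencing depth as well. The median fold on chromosomes 4, 13 and 18 was 5.81 and 5.88 in control and 5.10 and 4.96 in shCHD7-2, a difference of -0.82 (exact two-sided permutation test, p = 0.333). Medians of 5.74 and 5.79 in control and 5.07 and 4.96 in shCHD7-2 were found on the other chromosomes. The gene-poor chromosomes exceeded the rest by 0.085 ± 0.0173 in control and by 0.0148 ± 0.0209 in shCHD7-2 (SD, n = 2 each). The median summit held 14 and 13 reads in control and 13 and 14 reads in shCHD7-2. Relative to the library background, these medians were 15.3 and 15.4 in control and 9.28 and 8.63 in shCHD7-2. Of the peaks on these chromosomes, 11.0% in each control list were among the strongest 10% of their list by p value, and 8.39% and 9.93% in the shCHD7-2 lists.

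The local background around peaks, which is the number of reads that the peak caller expected near the summit, was higher in reads in the shCHD7-2 libraries and lower relative to the library background. Its median on chromosomes 4, 13 and 18 was 1.42 and 1.38 reads in control and 1.72 and 1.89 reads in shCHD7-2. Divided by the library background, the median was 1.55 and 1.64 in control and 1.23 and 1.16 in shCHD7-2. The other chromosomes had 1.55 and 1.61 in control and 1.33 and 1.24 in shCHD7-2. The difference between these chromosomes and the rest was 0.0119 ± 0.0168 in control and -0.09 ± 0.014 in shCHD7-2 (SD, n = 2 each), which did not overlap (exact two-sided permutation test, p = 0.333). For chromosome 13 alone this difference overlapped between groups (exact two-sided permutation test, p = 0.667). Chromosome 4 had the highest local background of the 3, at 1.67, 1.71, 1.28 and 1.22 in the 4 libraries. Chromosome 18 had the lowest in shCHD7-2, at 1.09 and 1.07. There, 38.0% and 41.5% of the shCHD7-2 peaks had a local background within 0.001 reads of the library background, against 21.6% and 28.4% on the other chromosomes. The gene-rich chromosomes 17, 19 and 22 went further, with 53.2% and 66.4% of such peaks and medians of 1.00 and 1.00 in shCHD7-2.

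Most regions that both control libraries called on the gene-poor chromosomes kept a peak after CHD7 knockdown, at a rate close to that of the whole genome. Of 799 regions called in both control libraries, 533 had a peak in at least 1 shCHD7-2 library, which is 66.7% (95% Wilson interval 63.4 to 69.9%) against 65.6% over all chromosomes. shCHD7-2 replicate 1 kept 402 of the 799 regions, or 50.3%, against 49.5% over all chromosomes. shCHD7-2 replicate 2 kept 456, or 57.1%, against 55.8%. Both shCHD7-2 libraries kept 325, or 40.7%, against 39.7%. None of these shares stood apart from the background. The intervals cover counting error over regions only, since regions of 1 library are not replicates of a condition, and no test was made.

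Chromosome 18 kept the most and chromosome 13 the fewest of the 3. Chromosome 18 kept 112 of 153 regions, or 73.2% (interval 65.7 to 79.6%), which was the 3rd highest share of 23 chromosomes. Chromosome 4 kept 295 of 447, or 66.0% (61.5 to 70.2%), and chromosome 13 kept 126 of 199, or 63.3% (56.4 to 69.7%). The 3 intervals overlap one another and that of the other chromosomes, 65.4% (64.4 to 66.5%). Chromosome 18 was also first of the 3 in each shCHD7-2 library, at 57.5% and 62.7%, and chromosome 13 last, at 44.2% and 53.8%. The gene-rich chromosomes 17, 19 and 22 kept 47.8% (43.2 to 52.4%). Across the 23 chromosomes, the kept share ran against genes per Mb with a Spearman's rho of -0.56 (Pearson's r -0.60), a description over points from the same 4 libraries. Chromosomes 4 and 13 were only 10th and 14th of the 23 in kept share, and chromosomes 17, 19 and 22 came last. Regions of chromosomes 17, 19 and 22 were also weaker in control, with a median rank at the 46.4th percentile of the list against the 65.5th for chromosomes 4, 13 and 18.

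**Figure D2:**
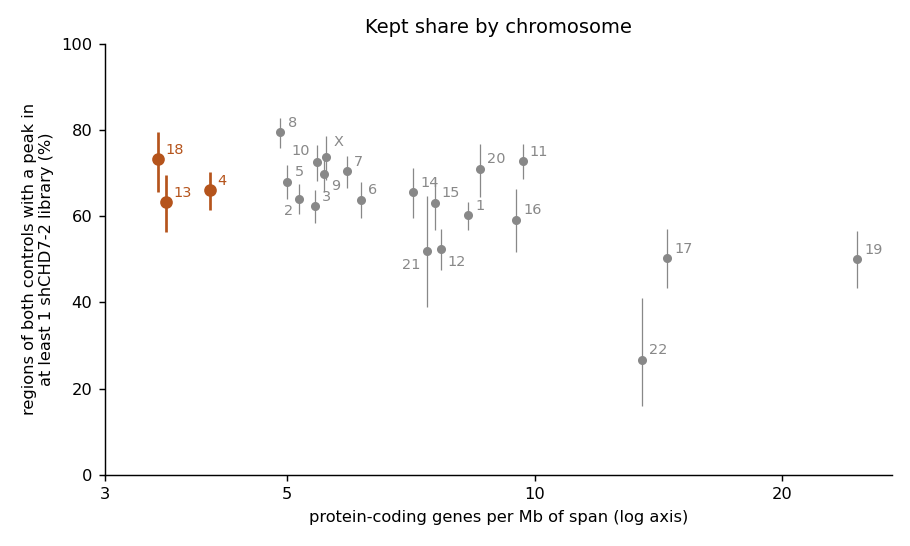
Share of regions of both controls that had a peak in at least 1 shCHD7-2 library, against protein-coding genes per Mb on a log axis, for 23 chromosomes (number beside each point). Bars are 95% Wilson intervals, and chromosomes 4, 13 and 18 (coloured), at the left, had shares of 66.0%, 63.3% and 73.2%.

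New regions were as frequent as elsewhere. Of 421 regions called in both shCHD7-2 libraries, 48 had no peak in either control library, which is 11.4% (interval 8.71 to 14.8%) against 11% over all chromosomes. These gained regions were 22 on chromosome 4, 13 on chromosome 13 and 13 on chromosome 18. Regions seen in 1 library alone numbered 981, or 49.7% of the 1973, against 47.8% over all chromosomes.

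How strong a region was in control went with whether it was kept. Regions retained in all 4 libraries had a median summit of 23 reads and a median width of 713 bp in control replicate 1. Regions kept in 1 shCHD7-2 library had 17 reads and 584 bp, and the 266 lost regions had 14 reads and 483 bp. Control replicate 2 gave the same order, with 21, 15 and 13 reads. Of 123 regions above the 90th percentile in control, 120 were kept, or 97.6% against 98.0% over all chromosomes, and the 3 lost ones were all on chromosome 4. Of 236 regions below the 50th percentile, 113 were kept, which is 47.9% against 40.7% on the other chromosomes.

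At a given strength in control, the kept share on the gene-poor chromosomes lay above that of the rest among weak regions and below it among strong ones. All regions of both controls were split into 10 equal groups by their mean rank in the control lists. In the 3 weakest groups, chromosomes 4, 13 and 18 kept 104 of 210 regions, or 49.5% (42.8 to 56.2%), against 39.3% (37.3 to 41.3%) elsewhere. In groups 4 to 7 they kept 198 of 322, or 61.5% (56.1 to 66.6%), against 65.0%. In the 3 strongest groups they kept 231 of 267, or 86.5% (81.9 to 90.1%), against 92.8% (91.7 to 93.8%). Both differences had the same direction in each shCHD7-2 library. shCHD7-2 replicate 1 kept 31.4% against 24.2% of the weak and 73.0% against 81.5% of the strong regions, and shCHD7-2 replicate 2 kept 38.1% against 28.5% and 81.6% against 86.8%. The widest gap among strong regions was in the eighth group, where 56 of 78 regions were kept, or 71.8%, against 86.4%. Over all 10 groups, the 533 kept regions compared with 542 expected from the shares of the other chromosomes, a ratio of 0.983 (0.934 to 1.03). The ratio was 0.966 for chromosome 4, 0.956 for chromosome 13 and 1.07 for chromosome 18, and each interval held 1. These differences were not tested, and neighbouring regions are not independent, so the intervals are too narrow.

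**Figure D3:**
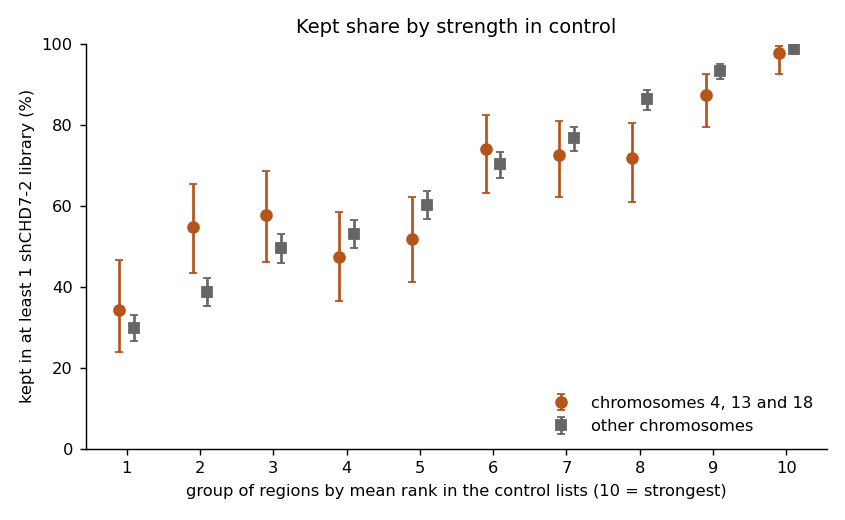
Share of regions of both controls that kept a peak in at least 1 shCHD7-2 library, in 10 equal groups by rank in the control lists (10 is the strongest), for chromosomes 4, 13 and 18 and for the other chromosomes. Bars are 95% Wilson intervals, and the gene-poor chromosomes lie above the rest in the 3 weakest groups and below it in groups 7 to 10.

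The kept share differed greatly along the chromosomes. In 5 Mb bins with at least 10 regions of both controls, of which there were 39, the share ran from 21.4% to 93.3% with a median of 71.4%. In 7 of the 39 bins the Wilson interval left out the overall 66.7%. No bin held more than 22 regions of both controls. Such bins were not counted on the other chromosomes, so 7 of 39 cannot be called unusual. Both shCHD7-2 libraries ranked the bins alike, with a Spearman's rho of 0.78 and a Pearson's r of 0.82 over 39 bins, a description in which the 2 libraries share the same control regions. The kept share went with the mean control rank of a bin's regions (rho 0.49), and hardly with their number (rho -0.07).

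The largest departure was on the long arm of chromosome 4. From 110 to 140 Mb, 6 adjacent bins each kept 50% or less of their control regions, and together they kept 12 of 50, or 24% (14.3 to 37.4%). shCHD7-2 replicate 1 kept 5 of the 50 and replicate 2 kept 9. In order, these bins held 17, 4, 14, 9, 2 and 4 control regions, and the bin from 130 to 135 Mb kept 1 of 2. In this stretch the control libraries listed 76 and 67 peaks, and the shCHD7-2 libraries listed 6 and 11. Between 115 and 120 Mb and between 125 and 130 Mb the shCHD7-2 libraries listed 0 peaks where control replicate 1 had listed 5 and 15. The regions there were not weak in control, with a mean rank at the 64.9th percentile and a median control fold of 6.02 and 5.97. The runs of bins were defined after the bin values were seen, so they describe the data and were not tested. The minimum number of control regions per bin used above was not applied to runs, here or below. The share of a single bin in a run can therefore rest on few regions.

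The next stretch of the same chromosome behaved otherwise. From 140 to 175 Mb, 7 adjacent bins each kept 75% or more, and together they kept 81 of 99 regions, or 81.8% (73.1 to 88.2%). The libraries listed 162 and 153 peaks in control and 119 and 133 in shCHD7-2. Mean control rank was at the 66.4th percentile, close to that of the stretch before. The local background at the remaining shCHD7-2 peaks was 1.02 and 1.00 times the library background from 110 to 140 Mb and 1.36 and 1.32 times from 140 to 175 Mb, while control peaks had 1.79 and 2.06 in the first and 1.66 and 1.71 in the second. The shCHD7-2 medians of 1.02 and 1.00 rest on 6 and 11 peaks and lie at or near the library background itself. Between these stretches, local background at the remaining shCHD7-2 peaks was lower where the kept share was lower. This did not hold for every bin, since chromosome 4 from 45 to 50 Mb kept 12 of 13 regions at 1.06 and 1.03. The part of local background in the result was not tested. DNA copy number and clonal make-up of the infected cells were not measured, and their part in these counts was not tested either.

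Without the stretch from 110 to 140 Mb, chromosome 4 kept 283 of 397 regions, or 71.3%, and the 3 chromosomes 69.6%. The strongest 3 groups by rank then kept 223 of 247, or 90.3% (85.9 to 93.4%), against 92.8% elsewhere, an interval that holds the share elsewhere. The eighth group kept 77.5% against 86.4%. The weakest 3 groups kept 51.0% against 39.3%. The ratio of kept to expected regions became 1.03 in place of 0.983. No low stretch was left out of the other chromosomes, which have such runs too. The comparison is therefore one-sided, and a rise on the 3 chromosomes follows from leaving out their lowest stretch.

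Runs of this kind were found elsewhere too. Over all chromosomes there were 17 runs of at least 3 adjacent bins at 50% or less, of which 3 lay on the gene-poor chromosomes, and the longest, of 8 bins, was on chromosome 22. The other 2 were on chromosome 4 from 55 to 70 Mb, with 7 of 16 regions kept, and on chromosome 13 from 80 to 95 Mb, with 1 of 7 kept. Runs of at least 3 bins at 75% or more numbered 31, of which 4 lay on these chromosomes. For scale, chromosomes 4, 13 and 18 made up 363 of the 2928 Mb of span over all chromosomes, and neither count of runs was tested. Chromosome 4 kept 27 of 30 regions from 10 to 25 Mb, where the shCHD7-2 libraries listed 55 and 75 peaks and the control libraries 48 and 50. Chromosome 18 kept 30 of 33 regions from 40 to 55 Mb and 26 of 32 from 60 to 75 Mb. Chromosome 13 had no such run.

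**Figure D4:**
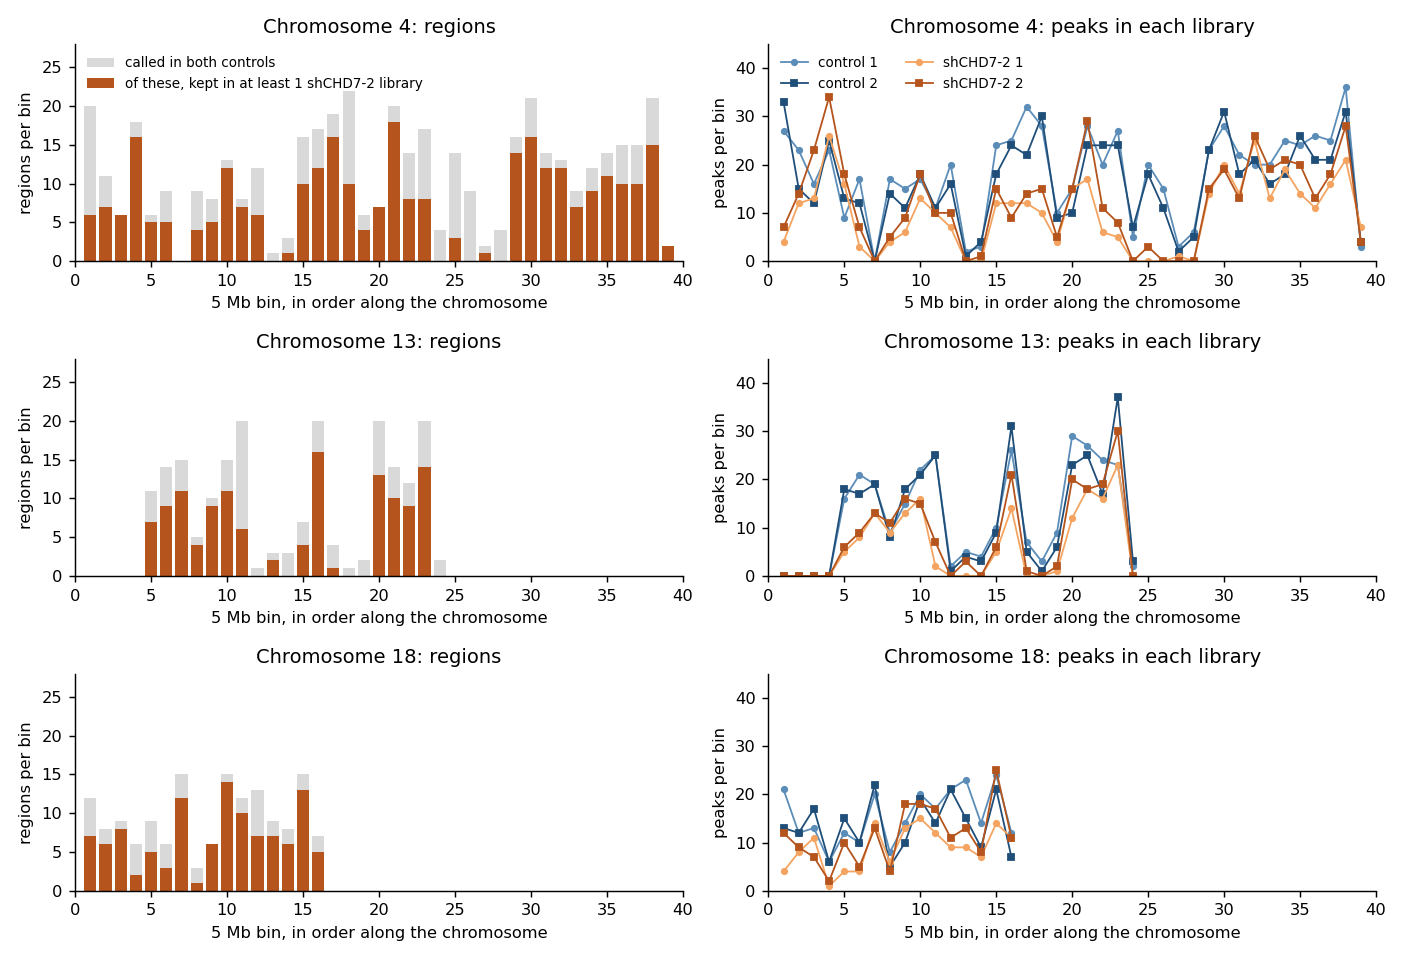
Left, regions called in both control libraries in each 5 Mb bin (grey) and those of them kept in at least 1 shCHD7-2 library (orange), and right, peaks in each of the 4 libraries, with bins in order along chromosomes 4, 13 and 18. On chromosome 4 the shCHD7-2 libraries fall to between 0 and 3 peaks per bin over 5 adjacent bins in which the control libraries list up to 20, and rise again in the next bin to 14 and 15.

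Among the 39 bins with at least 10 regions of both controls, the lowest shares were 3 of 14 regions on chromosome 4 from 120 to 125 Mb, 6 of 20 on chromosome 4 from 0 to 5 Mb and 6 of 20 on chromosome 13 from 50 to 55 Mb. At the tip of chromosome 4 the libraries listed 27 and 33 peaks in control and 4 and 7 in shCHD7-2. On chromosome 13 from 50 to 55 Mb they listed 25 and 25 in control and 2 and 7 in shCHD7-2. In all 3 bins both shCHD7-2 libraries lay far below both control libraries. The highest shares among the 39 were 14 of 15 regions on chromosome 18 from 45 to 50 Mb, and 12 of 13 on chromosome 4 from 45 to 50 Mb and from 155 to 160 Mb. In the last of these the shCHD7-2 libraries listed 25 and 26 peaks and the control libraries 20 and 21, so shCHD7-2 was the higher group. The summed shCHD7-2 peaks exceeded those of control in 9 of 79 bins, and each shCHD7-2 library had fewer peaks than each control library in 55. Of the 79 bins, 5 held no peak in any library and could count for neither. Bins of the other chromosomes, where peak number fell by about the same factor, were not counted in this way.

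Neighbouring regions tended to share their state. When the nearest other region of both controls was kept, 386 of 528 regions on chromosomes 4, 13 and 18 were kept, or 73.1%, and when it was lost, 147 of 271, or 54.2%. The other chromosomes had 72.2% and 53.3%, so this tendency was of the same size there.

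Some stretches held no peak in any library. The longest between peaks of the same chromosome were chr4:29426115-36245318, of 6.82 Mb, chr13:54603758-59660314, of 5.06 Mb, and chr18:15408057-18691647, of 3.28 Mb. Stretches before the first peak or after the last were left out of this ranking. Of 79 bins, 5 held no region, namely the first 4 of chromosome 13, an acrocentric chromosome whose short arm consists of repeats, and chromosome 4 from 30 to 35 Mb. No hg19 sequence was used, so stretches to which reads cannot be mapped were not told apart from closed chromatin. Counted by regions of both controls, the densest bin was chromosome 4 from 85 to 90 Mb, with 22, ahead of chromosome 4 from 145 to 150 Mb and from 185 to 190 Mb, with 21 each. On chromosome 13 the bins starting at 50, 75, 95 and 110 Mb tied at 20 regions, of which 6, 16, 13 and 14 were kept. On chromosome 18 the bins starting at 30, 45 and 70 Mb tied at 15 regions, of which 12, 14 and 13 were kept.

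The strongest region retained in all 4 libraries was chr4:166033416-166034619. Its summit held 78 and 71 reads in control and 44 and 45 reads in shCHD7-2. Fold enrichment over the local background was 12.6 and 12.1 in control and 8.79 and 9.06 in shCHD7-2, so both shCHD7-2 libraries were lower. The next on chromosome 4, chr4:100484233-100485364, had folds of 9.61 and 11.6 in control and 8.07 and 10.1 in shCHD7-2, which overlap. For chr4:155471053-155471999 the folds were 11.3 and 10.1 against 9.17 and 6.74, with no overlap.

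On chromosome 13 the strongest retained region was chr13:98085150-98086254, with folds of 8.54 and 8.99 in control and 7.34 and 9.28 in shCHD7-2, which overlap. The second, chr13:107751798-107752699, had 11.5 and 10.0 in control and 8.63 and 7.11 in shCHD7-2, and was lower in both shCHD7-2 libraries. The third, chr13:110492609-110493360, had 8.84 and 10.4 against 8.70 and 7.57, again without overlap. On chromosome 18, chr18:48724101-48724853 had folds of 9.84 and 9.57 in control and 7.83 and 7.81 in shCHD7-2. The highest control fold of the 9 named retained regions was at chr18:77006229-77006926, with 13.8 and 13.6 in control and 12.4 and 8.39 in shCHD7-2. The third, chr18:56806593-56807754, had 10.4 and 11.0 against 9.70 and 8.52. All 3 were lower in both shCHD7-2 libraries.

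Over the 325 retained regions of these chromosomes, the fold in both shCHD7-2 libraries lay below that in both control libraries in 207, against 66.1% of such regions over all chromosomes. It lay above in 4 regions, of which 3 were on chromosome 13 and 1 on chromosome 18, against 2.77% over all chromosomes. The median fold over the 325 regions was 7.44 and 7.14 in control and 5.65 and 5.77 in shCHD7-2. The 207 regions are 63.7% of the 325, which is close to the share over all chromosomes. These regions had to be called in every list, so changes that ended a call are not among them.

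On chromosome 4 the strongest lost regions lay where the shCHD7-2 libraries had few peaks. At the top was chr4:128885992-128886919, with 33 and 29 reads at the control summits and folds of 9.50 and 9.09. Next was chr4:120987551-120988702, with 29 and 33 reads and folds of 8.11 and 8.72. Both lie in the 110 to 140 Mb stretch of chromosome 4. The third was chr4:775503-776318, in the low bin at the tip of the chromosome, with 28 and 26 reads and folds of 9.42 and 8.82. None of these had a peak in either shCHD7-2 library.

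On chromosome 13 the lost regions with the highest ranks were chr13:65297846-65298312, with control folds of 11.1 and 8.82, chr13:41706542-41707178, with 8.87 and 8.49, and chr13:95253710-95254467, with 8.45 and 7.69. The first lies in a bin, from 65 to 70 Mb, that kept 0 of 3 control regions. The second, in contrast, is the 1 region lost of 10 between 40 and 45 Mb. On chromosome 18 they were chr18:19320259-19321101, with folds of 8.28 and 9.84, chr18:48404966-48405621, with 7.58 and 10.4, and chr18:32621056-32621860, with 7.99 and 8.39. The second of these is the 1 lost of 15 regions in the bin with the highest kept share among those 39.

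Gained regions were narrower and weaker than retained ones. Their median width was 389 and 385 bp in shCHD7-2 replicates 1 and 2, against 498 and 540 bp for retained regions. The strongest was chr4:154994482-154995048, with 23 and 28 reads and folds of 6.22 and 7.75 in shCHD7-2, in the high stretch of chromosome 4. It was followed by chr4:99564097-99564599, with folds of 6.67 and 8.44, and chr4:189048697-189049153, with 5.52 and 6.25. The strongest on chromosome 13 was chr13:39725481-39726176, with 6.98 and 5.72, ahead of chr13:38230505-38231105, with 5.42 and 8.01, and chr13:48073750-48074140, with 5.43 and 6.79. Chromosome 18 had chr18:71419787-71420168, with 7.75 and 5.88, chr18:75190675-75191326, with 5.81 and 6.69, and chr18:41678556-41678996, with 6.62 and 5.34.

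The widest regions ranked between the 61.3rd and 89.0th percentile of the control lists. The widest of all was chr13:41634348-41636253, of 1906 bp, with folds of 5.87 and 6.09 in control and 6.29 and 4.61 in shCHD7-2, which overlap. On chromosome 4 it was chr4:99849461-99851285, of 1825 bp, with 6.32 and 5.07 in control and 4.52 and 4.62 in shCHD7-2. On chromosome 18 it was chr18:72264593-72266144, of 1552 bp, with 5.94 and 6.03 in control and a peak in shCHD7-2 replicate 2 alone, at 5.63.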

How the data were processed

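Each ATAC-seq library was deposited as 1 narrowPeak list, called separately by the authors. The submitters' processing notes name hg19, Bowtie2 2.2.5, SAMtools 1.9, MACS2 2.1.2 and deepTools 3.3.0. Settings, the shift of reads for the Tn5 cut, duplicate removal and read extension are not given in the sources used here, and each could change which positions were called. The fold enrichment (a ratio), the -log10 p and q and the score were used as deposited by the authors, whose lists hold q under 0.05.

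Summit pileup k and local background b were solved from fold = (k + 1) / (b + 1) and a Poisson p, a solution that met the listed -log10 p to within 0.001 for 100% of peaks and that on simulated data returned every planted pileup. The most frequent b is the library background, a proxy for depth only if reads were extended alike. Samples were grouped and numbered from their titles. Peaks were merged at 1 bp of overlap. A region was retained when called in all 4 libraries, lost when called in both controls and neither shCHD7-2 library, and gained in the reverse case. Groups were compared by exact two-sided permutation tests over 6 assignments of 4 libraries, and shares got 95% Wilson intervals. Density uses the span from first to last peak.

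Named regions were, per chromosome, the 3 retained, lost and gained regions ranked highest by -log10 p (mean percentile over the lists that called them) and the widest region. Named bins were the 2 densest per chromosome (all ties are given) and the 3 highest and lowest in kept share. The regions and rules were chosen with earlier results of these data known, and runs of bins after the bins were seen. No peak lay on unlocalised scaffolds of these chromosomes. No hg19 genome or annotation was used, so no sequence is shown. Alternatives were stricter q, lists of equal length, other overlap rules, other strata and bins, another span, leaving out each library and a replicate block. The work was done in Python 3.11.15 with pandas 2.3.3, NumPy 2.4.6, SciPy 1.17.1 and, for plots, matplotlib 3.10.9.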

Additional observations from a re-analysis of the deposited data

How the results depend on the processing

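The share of each list on chromosomes 4, 13 and 18 changed direction with the processing. Its difference between groups was 0.138 percentage points over all peaks, -0.479 at a -log10 q of at least 5, -1.09 at 10 and -0.21 with lists cut to an equal length of 7199 peaks, and leaving out each library in turn gave -0.057 to 0.334, negative without shCHD7-2 replicate 2. The kept share of 66.7% became 50.8% at a -log10 q of at least 5 (54.0% on the other chromosomes), 72.1% with equal lists (76.8%) and 62.0% with summits within 250 bp (61.8%), and 50.04 to 57.1% without 1 library. The 266 lost regions became 146 with equal lists and 343 to 619 without 1 library, rising most without a control library. The 48 gained regions became 21 at a -log10 q of at least 5, 80 with equal lists and 72 to 275 without 1 library, rising most without a shCHD7-2 library. The log2 ratio of peaks went from -0.65 to -1.16 and -1.87 at the stricter thresholds and to -0.03 with equal lists, which fixes the totals, and without 1 library it ran from -0.82 to -0.49. Adding a replicate block gave log2 ratios of -0.66 (peaks) and -0.91 (covered length), each with p = 0.5 by an exact sign-flip test, and changed no direction. This p is the smallest that the sign-flip test can give for 2 pairs of libraries. The differences of replicate 1 and replicate 2 in calls had a correlation of -0.0012 between groups over 1973 regions. Of these regions, 981 were called in 1 library alone and 325 in all 4, so they cannot differ in both groups. The correlation therefore cannot decide whether samples of the same number share more than that number. Leaving out chromosome 4 from 110 to 140 Mb, an alternative chosen after seeing the data, gave 228 lost and 48 gained regions. Where the cause of a change is not stated, the cause was not tested. The lists hold called peaks only, so a region without a peak may still hold reads.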

Other observations

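No 5 Mb bin held more than 4 gained regions. Chromosome 18 from 75 to 80 Mb held 4 of the 48, and chromosome 18 from 40 to 45 Mb and from 70 to 75 Mb held 3 each. On chromosome 13 there were 3 gained regions from 35 to 40 Mb, where the control libraries listed 9 and 8 peaks and the shCHD7-2 libraries 9 and 11. On chromosome 4 there were 3 from 185 to 190 Mb and 3 from 70 to 75 Mb. These bins were picked after their values were seen, and no test or comparison with the number of shCHD7-2 regions per bin was made.

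Summits of the retained regions were not always at the same base. The median distance between the outermost summits of the 4 libraries was 206 bp over chromosomes 4, 13 and 18, with 197 bp on chromosome 4, 156 bp on chromosome 13 and 292 bp on chromosome 18, against 187 bp on the other chromosomes.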
